A study of Saccharomyces cerevisiae with 12 samples.

Results

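The 54 genes described here encode the proteins that build the small (40S) ribosomal subunit of budding yeast, Saccharomyces cerevisiae. They comprise the protein partners of the U3 small nucleolar RNA, the UTP family, and other factors of 18S rRNA processing and 40S assembly. They were chosen by systematic name from the gene count table, and all 54 were found among its 7127 features. All 54 passed the filter on low counts, after which 6157 genes were tested. Their counts in single libraries ran from 278 to 15352.

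In the nucleolus, RNA polymerase I makes a long precursor that holds 18S rRNA together with the rRNAs of the large subunit. The small-subunit processome assembles on the first part of this precursor as it is made, base-pairs it with U3 RNA, folds it and allows the cuts that release the 18S part. Yeast makes the messenger RNAs of these factors together with those of other ribosome assembly factors, and the set is known to be raised in fast growth and lowered under stress and starvation.

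Libraries were made from 4 groups of 3 biological replicates. NTT1 cells with ATP and NTT1 cells without ATP carried PH-NTT1, integrated in the genome, and the QUEEN reporter, a genetically encoded ATP indicator, in a BY29034 background. NTT1 is a nucleotide transporter of the parasite Encephalitozoon cuniculi. Wild-type (WT) cells with ATP and WT cells without ATP carried an empty vector, and each WT library has a strain name of its own, from BY29034 to BY29039. ATP was given at 5 mM in the medium for 1 h, and all cultures were taken in mid-log growth in a complete synthetic medium. Strain comparisons thus cover the transporter, the reporter and the empty vector together, and what PH stands for is not given in the labels. If the strain names are taken as given, WT libraries with and without ATP also differ in strain name. The transcript of NTT1 was not analysed here, so strains rest on the labels.

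Library totals ran from 14845855 to 20714804 counts. The 54 genes took 0.841% to 0.921% of the counts in NTT1 libraries with ATP and 0.680% to 0.738% in NTT1 libraries without ATP. They took 0.868% to 0.906% in WT libraries with ATP. In WT libraries without ATP the shares were 0.561% in replicate 1, 0.527% in replicate 2 and 0.899% in replicate 3. WT replicate 3 without ATP therefore stood apart from its group and lay within the range of the treated libraries. Whether its label is right cannot be told from these files, which bears on the ATP effect in WT, the strain comparison without ATP and the interaction. For these comparisons, counts called by edgeR and medians over the 54 genes are given with and without that replicate. Most values of single genes, other lists and motif classes are given with it only. It was singled out by its level in these same 54 genes, and without it only replicates 1 and 2 remain in that group. Shifts of the WT values without it follow from that choice. In bulk cultures a change of level in every cell and a change in the share of cells that express a gene cannot be told apart.

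The upstream sequence of these genes is shown first, because it is a feature that the choice of the list did not use. Ribosome assembly genes of yeast are known to carry a pair of short elements before the gene, named PAC and RRPE. An excess before these 54 genes was therefore likely beforehand, and the shares below are a description. The 250 bases before each start codon were read from the R64 genome and searched on both strands. The PAC core GATGAG was found before 47 of the 54 genes (87.0%), against 17.0% of 6001 windows over all coding genes. Its longer form GCGATGAG, which contains the core, was found before 27 (50.0%), against 3.8%. The RRPE core AAAATTTT was found before 43 (79.6%), against 8.6%. The longer RRPE form GAAAAATTT, which can overlap the core, was found before 34 (63.0%), against 5.9%. Both cores stood before 39 genes (72.2%), against 4.1% of all windows. Neither core stood before UTP22, EMG1 and UTP30, and 78.4% of all windows held neither. A match is a string of letters and not a shown binding site.

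Stretches of 30 bases are given for some of the genes whose values come later. Each was cut around a motif match, so the likeness of the motif letters follows from that choice. They come from the RefSeq R64 genome and read 5′ to 3′ on the strand of the gene, with motif letters in capitals and motifs at an edge in part.
NOP1 (YDL014W), chrIV:427128-427157, plus strand: ctttttcttGAAAAATTTTTCaaattggaa
SNU13 (YEL026W), chrV:101738-101767, plus strand: atgctggaatgaGATGAGttagAAAATTTT
UTP15 (YMR093W), chrXIII:453891-453920, plus strand: ggaataactGAAAAATTTTgaaaactttcg
UTP6 (YDR449C), chrIV:1358990-1359019, minus strand: aaagatctggGCGATGAGctaaatatcagg
UTP21 (YLR409C), chrXII:937327-937356, minus strand: GAAAAATTTcGCGATGAGattgctaatgaa
IMP3 (YHR148W), chrVIII:393440-393469, plus strand: cactgatataagCTCATCGCaacaaaaatt
DHR2 (YKL078W), chrXI:288767-288796, plus strand: tcGATGAGATGAGATGAGgttatgatatat
BMS1 (YPL217C), chrXVI:143273-143302, minus strand: cgtacaaatGAAAAATTTTcaagGCGATGA
RCL1 (YOL010W), chrXV:307824-307853, plus strand: aagtgccGATGAGATGAGccttcataagct
FCF1 (YDR339C), chrIV:1150617-1150646, minus strand: tatgaacggctAAAATTTTTCagcttgcta
KRR1 (YCL059C), chrIII:23451-23480, minus strand: GATGAGatatgAAAATTTTcaaaaaaaaga
BFR2 (YDR299W), chrIV:1059511-1059540, plus strand: aatacGCGATGAGATGAGataattgtatat
UTP20 (YBL004W), chrII:227452-227481, plus strand: AAAATTTTtaccGATGAGcattgaaaagtt

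In IMP3 the PAC letters lie on the other strand and read CTCATCGC. In UTP21, SNU13, UTP20 and KRR1 both elements fit in the 30 bases shown, and in BMS1 the last base of the PAC core lies just past the end. DHR2, RCL1 and BFR2 hold overlapping copies of the PAC core. Distances from the start codon to the first base of the motif ran from 54 to 229 bases for the PAC core, with a median of 105, and from 33 to 225 bases for the RRPE core, with a median of 133. Distances to the start of transcription were not used here.

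**Figure D1:**
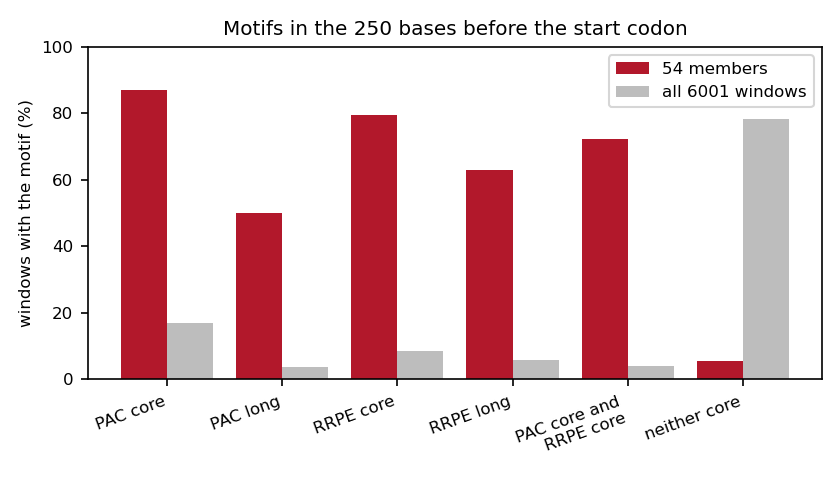
Share of windows of 250 bases before the start codon that hold each motif on either strand (vertical axis, percent), for the 54 genes in red and for all 6001 windows in grey. Both cores stood before 72.2% of the 54 genes and before 4.1% of all windows.

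The 54 genes each have 1 exon, lie on 14 chromosomes and overlap no other annotated gene of R64. No pair of them is adjacent. Per length, transcript levels spanned a wide range, here as CPM, counts scaled to a common library size, per kilobase of coding length, averaged over the 4 groups. SNU13, an RNA-binding protein of the U3 particle that also serves the spliceosome, was highest at 1036 CPM per kb. NSR1, a nucleolar protein related to nucleolin, followed at 469. The snoRNP proteins NOP56, NOP58 and NOP1 stood at 370, 302 and 287 CPM per kb. The next gene, EMG1, stood at 150, and the lowest was UTP20 at 14.2, just under DHR2 at 14.6. The median over the 54 genes was 62.5 CPM per kb, against 46.0 over 5503 coding genes tested.

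The first comparison asked how ATP in the medium changed these transcripts in cells with the transporter. All 54 genes had a fitted log2 fold change above 0, with a median of 0.37 (1.29-fold), against a median of -0.0029 over all genes, of which 49.2% lay above 0. With upper-quartile scaling 53 of the 54 lay above 0, SNU13 being the exception. In 43 of the 54 genes, all 3 NTT1 libraries with ATP lay above all 3 without, against 18.5% of all genes. In 0 of the 54 did the ranges separate the other way, against 17.7% of all genes. Only NOP1 passed an adjusted p under 0.05 in edgeR's quasi-likelihood test of all 12 libraries (1 of 54, against 2.97% of all genes called higher). None of the 54 fell, against 1.49% of all genes called lower, and 21 were higher at an unadjusted p under 0.05, against 11.1%. DESeq2 called 6 of the 54, against 4.91% of all genes called higher.

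The fit of 12 libraries shares 1 estimate of spread between the strains. The median standard deviation (SD) of log2 CPM over the 54 genes was 0.074 in NTT1 libraries with ATP, 0.0945 in NTT1 libraries without, 0.068 in WT libraries with ATP and 0.49 in WT libraries without. Over all genes the last of these was 0.17. Without WT replicate 3 without ATP, which is no part of this comparison, 40 of the 54 genes rose with ATP in NTT1, against 9.25% of all genes called higher. When only the 6 NTT1 libraries were fitted, 38 rose, against 9.11%. The median fold change was 1.29 in each of these fits.

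The same question was asked in WT cells. All 54 genes again had a log2 fold change above 0, with a median of 0.44 (1.36-fold), against 0.0027 over all genes, of which 50.7% lay above 0. By edgeR, 12 of the 54 rose with ATP (5.42% of all genes were called higher), 0 fell (7.31% of all genes were called lower) and 34 were higher at an unadjusted p under 0.05, against 14.2%. DESeq2 called 21, against 7.42% of all genes called higher. The 12 were RRP9, UTP15, UTP9, UTP6, UTP13, RRP7, DBP8, RCL1, EMG1, FCF1, NSR1 and FCF2. When each library was left out in turn, UTP9, UTP13, DBP8 and FCF2 passed only in the fit without WT replicate 3 without ATP. In 17 genes all WT libraries with ATP lay above all WT libraries without, against 13.4% of all genes, and each of these 17 was also among the 43 separated in NTT1. Fitting only the 6 WT libraries gave 0 of the 54 called by edgeR, against 0.147% of all genes called higher, with 18 higher at an unadjusted p under 0.05, against 9.56% of all genes in that fit.

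WT replicate 3 without ATP stood high throughout. It was the highest of its group in 54 of 54 genes and lay above all 3 untreated NTT1 libraries in 54 of 54. Set against the mean of replicates 1 and 2 of its group, it was higher by 1.29-fold in FCF1, a median of 1.76-fold, and 2.61-fold in DHR2. It exceeded every WT library with ATP in 26 genes and lay below all of them in 17. Without it, 52 of the 54 genes rose with ATP in WT (median 1.70-fold), against 16.3% of all genes called higher, and only SNU13 and KRR1 did not pass. Since the replicate was singled out by its high level in these same genes, a larger effect without it follows from that choice. Leaving out WT replicate 1 or 2 without ATP left 0 of 54 called, with medians of 1.26-fold and 1.24-fold, and leaving out a treated WT library also left 0. In these 5 fits 0.55% to 1.39% of all genes were called higher. Leaving out any 1 of the NTT1 libraries left 5 to 8 called, against 2.91% to 4.19% of all genes called higher.

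**Figure D2:**
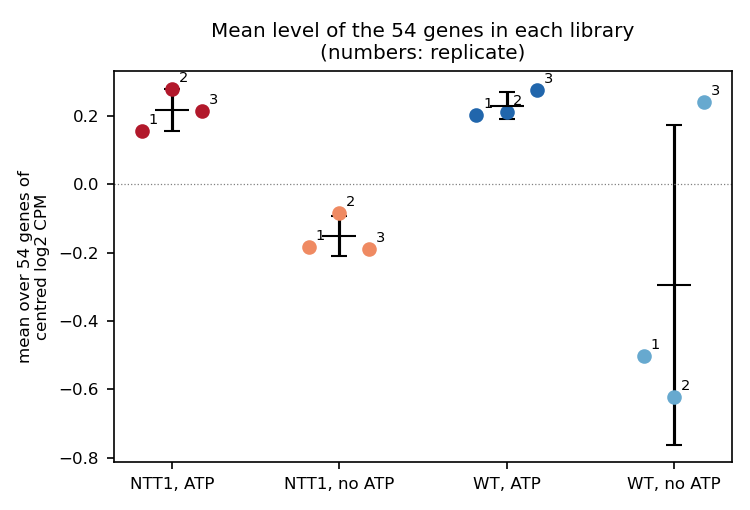
Mean over the 54 genes of log2 CPM, centred per gene on its mean over 12 libraries (vertical axis), for each library, with replicate numbers. Bars give the group mean ± SD (n = 3). Treated libraries of both strains sit between 0.15 and 0.28, untreated NTT1 libraries between -0.19 and -0.083, and untreated WT libraries at -0.50, -0.62 and 0.24.

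**Figure D3:**
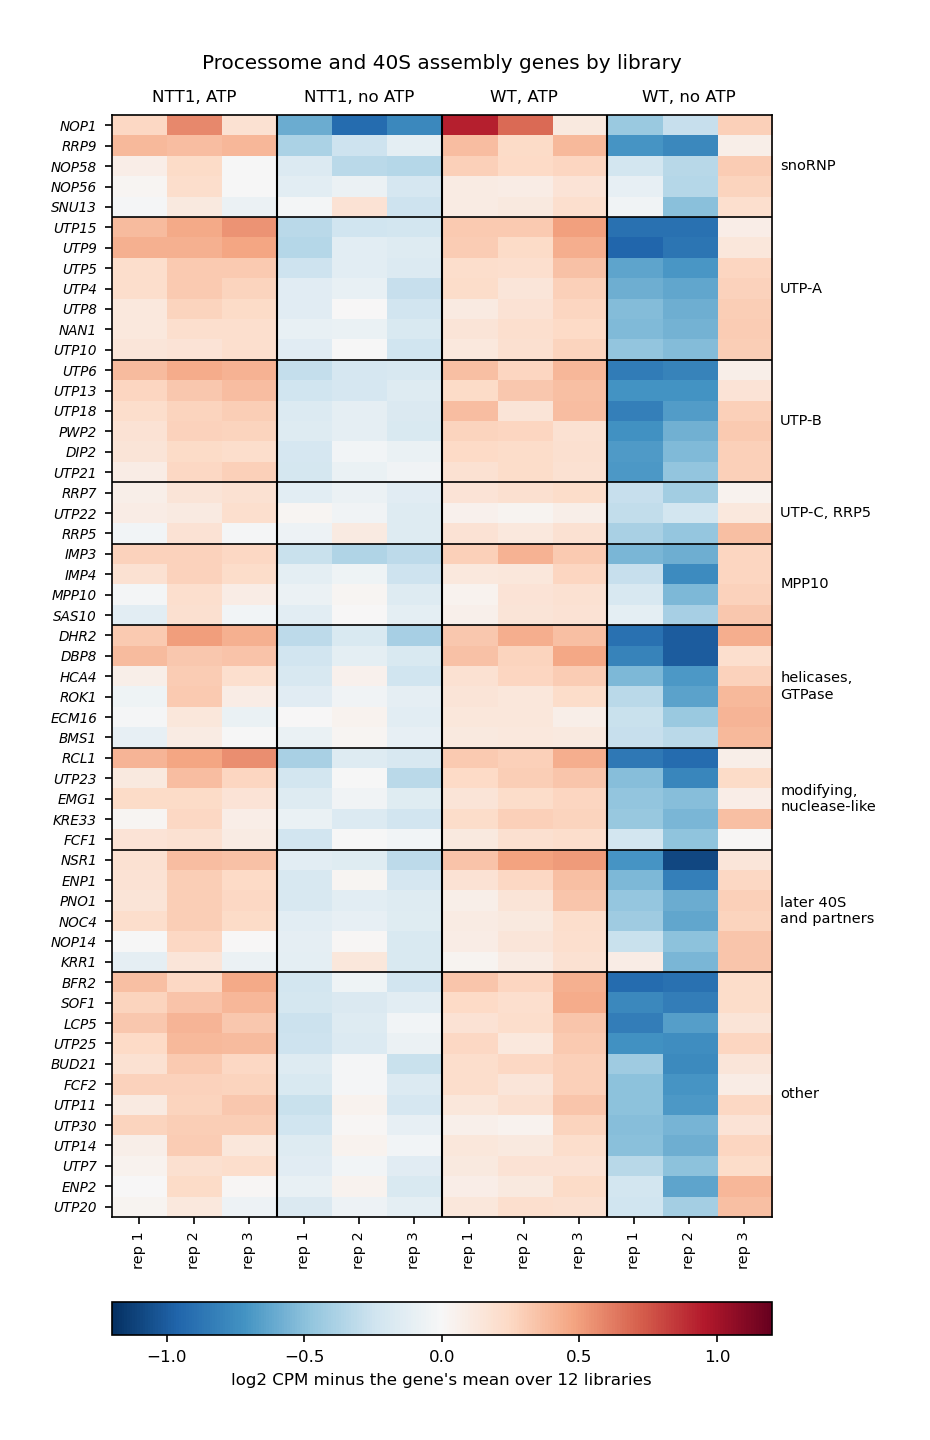
Log2 CPM of each of the 54 genes minus its mean over the 12 libraries (colour scale), with genes in rows by role and libraries in columns by group. WT replicate 3 without ATP is the highest of its group in all 54 rows.

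Across the 54 genes, effects in the strains were alike in order. Pearson's r between the log2 fold changes in NTT1 and in WT was 0.868 and Spearman's rho 0.919 over 54 genes. This is a description across genes, which are not independent replicates, and the comparisons share no library. By role, log2 fold changes in NTT1 spanned 0.30 to 0.64 in UTP-B and 0.03 to 1.11 in the box C/D and U3 snoRNP proteins.

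Among the 5 box C/D and U3 snoRNP proteins, NOP1 had the largest fold change with ATP in NTT1. NOP1 is fibrillarin, the methyltransferase of box C/D particles. It had 310, 389 and 296 CPM in NTT1 libraries with ATP, against 173, 137 and 153 CPM in NTT1 libraries without. These ranges do not overlap, and the rise was 1.11 on the log2 scale (SE 0.22, edgeR adjusted p 0.0210). When each of the 12 libraries was left out in turn, NOP1 passed in 6 fits. The edgeR adjusted p ran from 0.00214 to 0.102 and was over 0.05 without any 1 of the 6 NTT1 libraries. WT libraries had 497, 419 and 284 CPM with ATP, against 191, 216 and 318 CPM without. The WT ranges overlap, since the lowest treated library lies under untreated replicate 3 (log2 fold change 0.73, SE 0.22, edgeR adjusted p 0.0534, or 0.00435 without that replicate). RRP9, the WD-repeat protein specific to U3, rose in WT by 0.75 (SE 0.18, edgeR adjusted p 0.0281, and 0.0935 at most when 1 library was left out). SNU13 had the smallest fold change of the 5 in NTT1. It had 387, 423 and 372 CPM in NTT1 libraries with ATP, against 386, 442 and 330 CPM in those without, and these ranges overlap. The WT values were 420, 424 and 449 CPM with ATP, against 380, 277 and 449 CPM without, with untreated replicate 3 again high. Its log2 fold changes were 0.03 (SE 0.15, edgeR adjusted p 0.932) in NTT1 and 0.23 (SE 0.15, edgeR adjusted p 0.356) in WT.

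**Figure D4:**
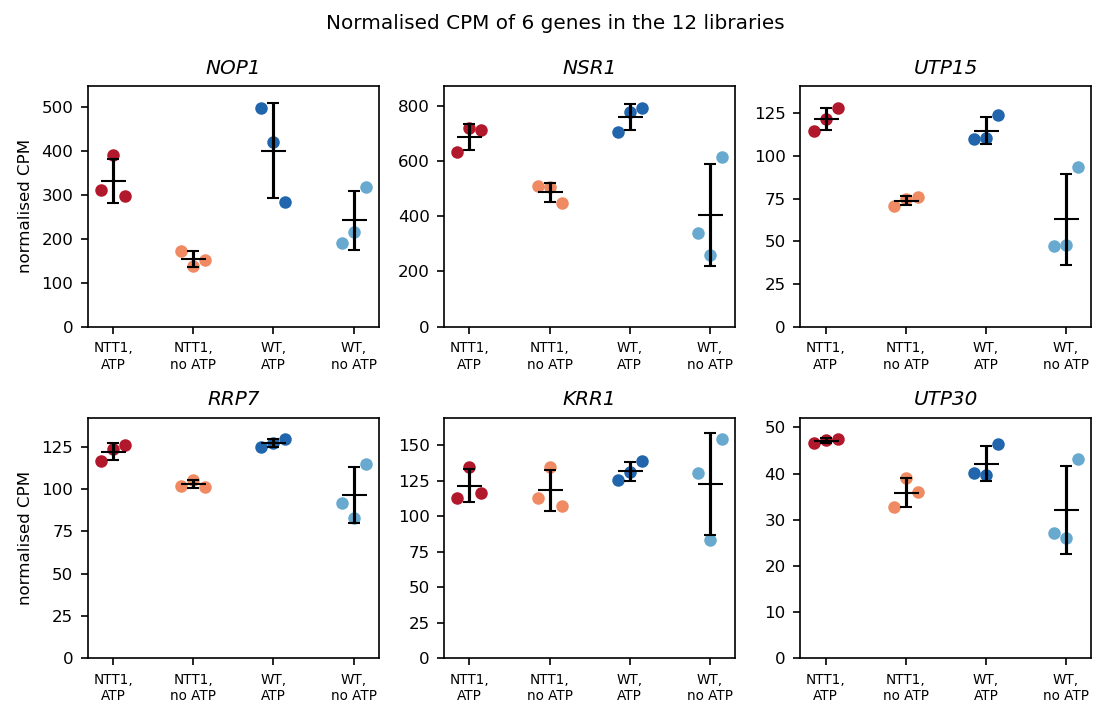
Normalised CPM of 6 genes (vertical axes, from 0) in each of the 12 libraries by group, with group mean ± SD (n = 3). NOP1 is lowest in untreated NTT1 (137 to 173 CPM), while KRR1 overlaps between treated and untreated libraries in both strains.

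UTP-A is the complex that meets the precursor first. Its 7 genes UTP4, UTP5, UTP8, UTP9, UTP10, UTP15 and NAN1 were all separated by ATP in NTT1, with log2 fold changes from 0.29 to 0.72. UTP15 was at the top. It had 115, 121 and 128 CPM in NTT1 libraries with ATP, against 70.6, 74.8 and 75.6 CPM in those without. For WT the values were 110, 110 and 124 CPM with ATP, against 47.4, 47.6 and 93.6 CPM without. Both pairs of ranges are apart, and in WT untreated replicate 3 lies nearer to the treated libraries than to its own group. It rose in WT by 0.87 (SE 0.21, edgeR adjusted p 0.0286, or 1.95e-06 without that replicate), and its value in NTT1 was 0.72 (SE 0.21, edgeR adjusted p 0.0781). UTP9 also rose in WT, by 0.80 (SE 0.23, edgeR adjusted p 0.0447, and 0.140 at most when 1 library was left out). UTP10 (YJL109C), a very long protein of 1769 residues, had the smallest fold change of the 7. It had 242, 245 and 252 CPM in NTT1 libraries with ATP, against 199, 218 and 186 CPM in those without. In WT the values were 239, 250 and 264 CPM with ATP, against 158, 152 and 269 CPM without, so that untreated replicate 3 was the highest of the 6.

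UTP-B, the complex of PWP2, UTP6, DIP2, UTP13, UTP18 and UTP21, follows UTP-A and contacts U3 RNA. Its 6 genes were also all separated in NTT1, with log2 fold changes from 0.30 to 0.64, and ran from 0.43 to 0.80 in WT. UTP6 had 84.9, 88.4 and 86.9 CPM in NTT1 libraries with ATP, against 53.5, 56.8 and 57.0 CPM in those without. In WT it had 83.7, 77.8 and 85.6 CPM with ATP, against 36.3, 37.2 and 68.2 CPM without. Both pairs of ranges are apart, and the untreated libraries spread most in WT. UTP6 rose in WT by 0.80 (SE 0.19, edgeR adjusted p 0.0271), and UTP13 by 0.66 (SE 0.19, edgeR adjusted p 0.0447). When 1 library was left out, the edgeR adjusted p reached 0.0878 in UTP6 and 0.142 in UTP13. UTP21 had 94.8, 106 and 108 CPM in NTT1 libraries with ATP, against 77.0, 84.0 and 86.5 CPM in those without. WT cells gave 101, 103 and 101 CPM with ATP, against 55.0, 63.9 and 108 CPM without. The ranges of UTP21 are apart in NTT1 and overlap in WT through untreated replicate 3. Without WT replicate 3 without ATP, all 7 UTP-A and all 6 UTP-B genes rose in both strains.

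UTP-C is a complex of the processome that includes UTP22 and RRP7, and RRP5 is an RNA-binding protein needed for both subunits. RRP7 (YCL031C) of UTP-C had small but tight values, with 116, 124 and 126 CPM in NTT1 libraries with ATP, against 102, 106 and 101 CPM in those without. WT libraries had 125, 127 and 129 CPM with ATP, against 91.7, 83.1 and 115 CPM without. Both pairs are apart, and it rose in WT by 0.40 (SE 0.10, edgeR adjusted p 0.0296, and 0.0978 at most when 1 library was left out). RRP5 (YMR229C) had 207, 240 and 210 CPM in NTT1 libraries with ATP, against 202, 229 and 191 CPM in those without. The WT values were 239, 231 and 240 CPM with ATP, against 162, 153 and 272 CPM without. Its ranges overlap in both strains.

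MPP10 forms a complex with IMP3 and IMP4, which help U3 RNA pair with the precursor, and SAS10 is grouped with them here. In NTT1, IMP3 varied least between replicates of these 4 genes. It had 51.7, 51.8 and 50.6 CPM in NTT1 libraries with ATP, against 35.4, 33.2 and 34.3 CPM in those without. In WT it had 52.0, 56.9 and 52.9 CPM with ATP, against 29.2, 28.4 and 50.9 CPM without. The log2 fold changes were 0.58 (SE 0.18, edgeR adjusted p 0.0867) in NTT1 and 0.58 (SE 0.18, edgeR adjusted p 0.0534) in WT. SAS10 (YDL153C) had 120, 150 and 128 CPM in NTT1 libraries with ATP, against 120, 131 and 121 CPM in those without. For WT the values were 137, 146 and 148 CPM with ATP, against 121, 99.3 and 165 CPM without. The ranges of SAS10 and of MPP10 overlap in both strains, and those of IMP3 in neither.

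The RNA helicases ROK1, HCA4, DBP8, ECM16 and DHR2 remodel the particle, and BMS1 is its GTPase. DHR2 had 38.0, 43.1 and 41.0 CPM in NTT1 libraries with ATP, against 24.5, 26.8 and 23.1 CPM in those without. WT cells gave 38.0, 41.1 and 39.1 CPM with ATP, against 16.4, 15.2 and 41.2 CPM without. The groups are apart in NTT1 and overlap in WT, where untreated replicate 3 is the highest of the 6. Its log2 fold changes were 0.71 (SE 0.29) in NTT1 and 0.70 (SE 0.29) in WT, with an edgeR adjusted p of 0.182 and 0.135, against 0.000207 and 3.07e-06 without that replicate. DBP8 rose in WT by 0.79 (SE 0.24, edgeR adjusted p 0.0492, and 0.157 at most when 1 library was left out). BMS1 had 175, 200 and 187 CPM in NTT1 libraries with ATP, against 177, 190 and 176 CPM in those without. WT libraries had 203, 204 and 203 CPM with ATP, against 155, 150 and 246 CPM without. The ranges of BMS1 overlap in both strains. ECM16 and BMS1 had the smallest log2 fold changes of these 6 in NTT1, at 0.04 (SE 0.17) and 0.05 (SE 0.15), and both turned below 0 without NTT1 replicate 2 with ATP.

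KRE33 acetylates and EMG1 methylates 18S rRNA, FCF1 is a PIN-domain nuclease, UTP23 is related to FCF1, and RCL1 is a cyclase-like partner of BMS1. All 5 were separated by ATP in NTT1, and 4 in WT. RCL1 had 87.2, 91.3 and 96.8 CPM in NTT1 libraries with ATP, against 50.1, 59.1 and 57.4 CPM in those without. In WT it had 81.7, 80.1 and 88.9 CPM with ATP, against 36.2, 34.6 and 68.9 CPM without. It rose in WT by 0.84 (SE 0.21, edgeR adjusted p 0.0302), while the log2 fold change of its partner BMS1, 0.15 (SE 0.15), did not pass. Without WT replicate 3 without ATP both passed. RCL1 was then at 1.24 (SE 0.08, edgeR adjusted p 3.44e-06) and BMS1 at 0.42 (SE 0.07, edgeR adjusted p 0.000743). The difference between these genes was not tested. FCF1 had 75.0, 75.9 and 71.5 CPM in NTT1 libraries with ATP, against 57.0, 66.7 and 65.3 CPM in those without. The WT values were 72.9, 76.5 and 77.7 CPM with ATP, against 57.6, 47.9 and 67.8 CPM without. Treated libraries lie above untreated ones in both strains for RCL1 and FCF1. FCF1 rose in WT by 0.39 (SE 0.11, edgeR adjusted p 0.0392), and EMG1 by 0.49 (SE 0.13, edgeR adjusted p 0.0351). When 1 library was left out, the edgeR adjusted p reached 0.119 in FCF1 and 0.118 in EMG1.

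ENP1, PNO1, KRR1, NOC4, NOP14 and NSR1 are grouped here as factors of later 40S particles and their partners. The grouping is a working one, and the stage at which each acts was not examined. NSR1 (YGR159C) had 634, 718 and 710 CPM in NTT1 libraries with ATP, against 510, 504 and 447 CPM in those without. For WT the values were 706, 778 and 791 CPM with ATP, against 340, 261 and 614 CPM without. Both pairs are apart. NSR1 rose in WT by 0.90 (SE 0.24, edgeR adjusted p 0.0336, and 0.113 at most when 1 library was left out). This was the largest log2 fold change of the 54 in WT. KRR1, a KH-domain protein, was the smallest in WT. It had 113, 135 and 117 CPM in NTT1 libraries with ATP, against 113, 135 and 107 CPM in those without. WT cells gave 125, 131 and 139 CPM with ATP, against 130, 83.5 and 154 CPM without. Its log2 fold changes were 0.04 (SE 0.18) and 0.10 (SE 0.18), and it passed in neither strain whichever of the 12 libraries was left out.

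The remaining 12 processome factors were separated by ATP in 10 cases in NTT1 and in 4 in WT. BFR2, a binding partner of ENP2 and LCP5, had 122, 113 and 131 CPM in NTT1 libraries with ATP, against 82.0, 92.3 and 81.4 CPM in those without. In WT it had 120, 114 and 128 CPM with ATP, against 50.4, 51.2 and 111 CPM without. Its ranges are apart in both strains, narrowly so in WT. FCF2 rose in WT by 0.54 (SE 0.16, edgeR adjusted p 0.0443, and 0.14 at most when 1 library was left out). UTP30 (YKR060W), which has neither motif core, had 46.5, 47.4 and 47.4 CPM in NTT1 libraries with ATP, against 32.7, 39.1 and 35.9 CPM in those without. WT libraries had 40.2, 39.7 and 46.5 CPM with ATP, against 27.0, 26.1 and 43.1 CPM without. The ranges of UTP30 are apart in NTT1 and overlap in WT. UTP20, the longest protein of the list at 2493 residues, had 107, 115 and 101 CPM in NTT1 libraries with ATP, against 93.2, 101 and 97.2 CPM in those without. The WT values were 115, 121 and 120 CPM with ATP, against 88.9, 79.4 and 135 CPM without. The ranges of UTP20 and ENP2 overlap in both strains.

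The ranges overlapped in both strains in 11 of the 54 genes, namely SNU13, RRP5, MPP10, SAS10, ROK1, ECM16, BMS1, NOP14, KRR1, ENP2 and UTP20. In the fit without WT replicate 3 without ATP, these 11 were among the 14 genes not called for ATP in NTT1, and all but SNU13 and KRR1 rose in WT.

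**Figure D5:**
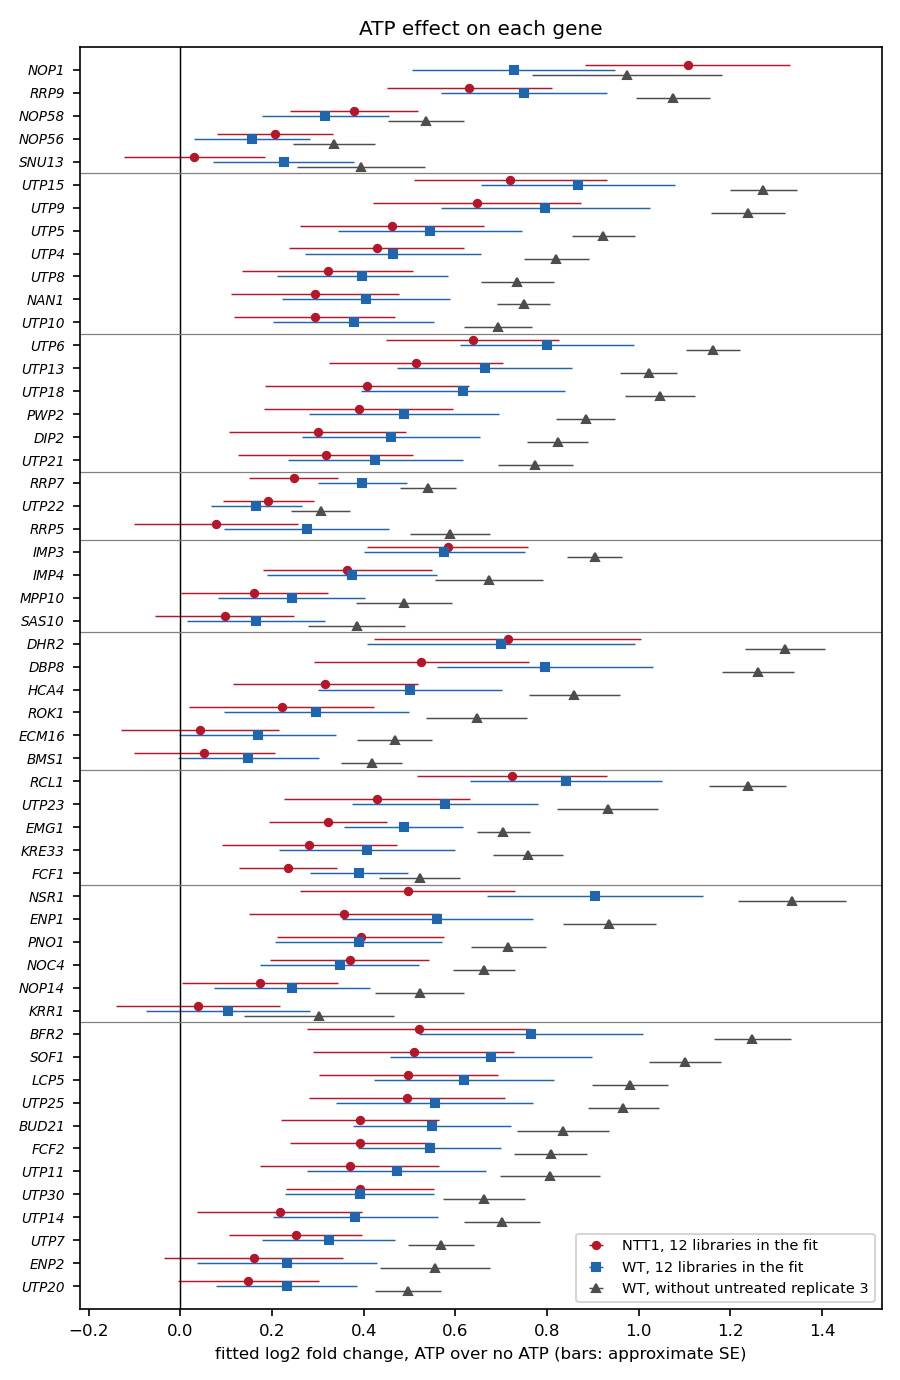
Fitted log2 fold change of ATP over no ATP for each of the 54 genes (horizontal axis; bars are approximate SE), in NTT1 (circles) and WT (squares) from the fit of 12 libraries, and in WT without untreated replicate 3 (triangles). Every point lies above 0, and the WT median is 0.44 with and 0.77 without that replicate.

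Genes with and without the upstream motifs were also set side by side. The 39 with both cores had a median log2 fold change of 0.32 in NTT1 and 0.41 in WT. The 8 with the PAC core alone, RRP9, UTP8, UTP18, IMP3, DHR2, RCL1, SOF1 and UTP11, had medians of 0.55 and 0.65. The 4 with the RRPE core alone, UTP15, UTP4, RRP7 and FCF1, had 0.34 and 0.43, and the 3 with neither core had 0.32 and 0.39. These classes go by the cores alone. UTP8, RCL1, SOF1 and UTP30 held the longer RRPE form GAAAAATTT without the RRPE core. Among genes outside the list, 199 tested genes had both cores. Their median was 0.17 in NTT1 with 87.9% above 0, and 0.23 in WT with 87.4% above 0. The 5250 other tested genes without both cores had medians of -0.0040 and -0.0056, with 49.0% and 48.6% above 0. By edgeR, 23 of the 199 were called higher and 1 lower in WT, against 277 and 428 of the 5250. In NTT1, 2 of the 199 were called higher and 0 lower, against 173 and 81 of the 5250. Of the 199, 18 are among the 31 other 40S factors described below. Other ribosome assembly genes, known to carry these elements, were not removed from the 199. A motif effect apart from ribosome assembly was not tested.

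The strains were then compared at each treatment. With ATP, the median log2 fold change of NTT1 over WT was -0.011, 25 genes lay above 0 and 29 below (50.7% of all genes lay above 0; with library totals alone as scaling, 35 of the 54 did), and 0 passed by edgeR or DESeq2, with 0 at an unadjusted p under 0.05, against 4.52% of all genes. The effects ran from -0.27 (NOP1, SE 0.22) to 0.16 (UTP30, SE 0.16). By edgeR 0.065% and by DESeq2 0.176% of all genes were called. Ranges separated upward in 2 and downward in 4 of the 54, against 8.2% and 7.97% of all genes.

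Without ATP the median was 0.0994 and 45 of the 54 genes lay above 0 in NTT1 over WT, against 50.3% of all genes. By edgeR or DESeq2 0 were called, and 1, NOP1, had an unadjusted p under 0.05, against 9.7% of all genes. Over all genes 0.0487% were called by edgeR and 0.602% by DESeq2. NOP1 was lower in NTT1 in each library, from 137 to 173 CPM, against 191 to 318 CPM in WT (log2 fold change -0.65, SE 0.22, edgeR adjusted p 0.385), and was the only gene of the 54 whose ranges did not overlap. Ranges that separate downward were found in 5.13% of all genes. In 47 of the 54 genes all untreated NTT1 libraries lay above WT replicates 1 and 2, and in 54 of 54 they lay below WT replicate 3. Without that replicate, 40 of the 54 were higher in NTT1 (median 1.35-fold), against 4.61% of all genes, and 0 were lower, against 5.13%. A move upward follows from leaving out a WT library that was singled out as high in these genes. Without WT replicate 2 without ATP the median was -0.048, and without replicate 1 it was -0.0082.

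A test of the interaction asked whether the response to ATP differed by strain, as the log2 fold change in NTT1 less the one in WT. Its median was -0.11, 9 of 54 genes lay above 0, against 50.6% of all genes, and 0 passed by edgeR or DESeq2, with 0 at an unadjusted p under 0.05. Of all genes 0% were called by edgeR and 0.088% by DESeq2, with 5.93% at an unadjusted p under 0.05 in edgeR. The largest in size was NSR1 at -0.41 (SE 0.33, edgeR adjusted p 0.980), and NOP1 was the highest at 0.38 (SE 0.31, edgeR adjusted p 0.980). Without WT replicate 3 without ATP, 18 of the 54 genes had a smaller effect in NTT1, against 1.04% of all genes. NSR1 was among them, at -0.84 (SE 0.15, edgeR adjusted p 0.0269), as were 4 UTP-A and 5 UTP-B genes. The replicate was singled out as high in these same genes, and leaving it out lowers their interaction by itself. These calls are therefore no independent evidence of a strain difference. The median turned to 0.031 without WT replicate 2 without ATP and to 0.0064 without replicate 1.

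Other factors of 40S assembly were read from the same fit. Of 31 such genes outside the list, all 31 had a log2 fold change above 0 with ATP in NTT1 (median 0.22), against 49.2% of all genes. In WT 30 did (median 0.31), against 50.7%. By edgeR 0 were called in either strain, against 2.97% of all genes called higher in NTT1 and 5.42% in WT. At an unadjusted p under 0.05 in edgeR, 3 were higher in NTT1, against 11.1% of all genes, and 13 in WT, against 14.2%. DESeq2 called 0 of the 31 in NTT1 and 2 in WT, against 4.91% and 7.42% of all genes called higher. FAL1, an RNA helicase picked after its values were seen, was highest in both strains, at 0.54 (SE 0.28) in NTT1 and 0.65 (SE 0.28) in WT. The 55 genes of 40S ribosomal proteins, whose products these factors assemble, had medians of 0.0036 in NTT1 and 0.056 in WT. Of the 55, 29 lay above 0 in NTT1 and 50 in WT, against 49.2% and 50.7% of all genes. In either strain 0 were called by edgeR or DESeq2. At an unadjusted p under 0.05 in edgeR, 1 was lower and 0 higher in NTT1, against 10.6% and 11.1% of all genes. In WT 0 passed at that level in either direction, against 30% of all genes. Many ribosomal protein genes are near-identical pairs, and how such reads were counted is not given in the sources used here. The genes outside the 54 most like their mean over the 12 libraries were IPI3, ARX1, NOC3, EMW1 and NOP4, with Pearson's r from 0.994 to 0.997. None of them is among the 31 other 40S factors, so the pattern is not particular to these lists. Within the 54 genes, r with their mean ran from 0.647 in KRR1 and 0.678 in NOP1 to 0.994, with a median of 0.967.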

How the data were processed

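The authors deposited raw counts per gene for 12 libraries. HISAT2 2.0.5, featureCounts 1.5.0, DESeq2 1.20.0 and build R64 are named in the submitters' processing notes. The strand setting, the annotation and the treatment of reads with several matches are not given in the sources used here. Symbols were matched by locus tag to RefSeq R64 (5653 of 7127 features).

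Counts were tested with edgeR 4.0.16 in R 4.3.3 (quasi-likelihood F-test, TMM scaling, filterByExpr, 1 fit of 12 libraries with a mean per group). Benjamini-Hochberg adjustment ran over 6157 genes, with calls at 0.05. SE were derived from the F statistic and are approximate. CPM use the TMM library sizes, so every level is relative to the other transcripts. Library depth limits the precision of low counts. DESeq2 1.42.0, other scalings, other filters and leaving out each library were alternatives. On simulated counts for ATP in NTT1 (6157 genes, 200 changed by a log2 size of 1), 91.5% were called. Of the calls, 6.63% were unchanged genes. The median log2 fold change of the 54 genes for ATP in NTT1 was 0.37, and calling at that size was not tested.

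The 54 genes, the roles and the other lists were chosen with earlier results of these data known. Values per library are given, in each role, for the genes with the largest and smallest mean of both ATP effects, for NOP1, and for the genes with the largest and smallest interaction in size. Other genes named with values, among them those called for ATP in WT, were picked after their values were seen. Upstream windows were cut from the R64 genome. A comparison of protein sequences was not made here.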

Additional observations from a re-analysis of the deposited data

How the results depend on the processing

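RLE, upper-quartile and library-total scaling and no filter on low counts left between 10 and 12 of the 54 genes called for ATP in WT and 1 in NTT1. Those settings called 4.37% to 5.49% of all genes higher for ATP in WT and 2.44% to 2.97% for ATP in NTT1. Over all genes, 183 higher and 92 lower calls for ATP in NTT1 became 150 and 150 with upper-quartile scaling. SNU13 for ATP in NTT1 was -0.0049 with upper-quartile scaling. With the 6 libraries of a comparison alone, 0 of the 54 and 19 of all genes (784 with 12 libraries) were called for ATP in WT, 38 and 950 (275 with 12) for ATP in NTT1, and 0 of all genes (3 with 12) for NTT1 against WT without ATP. DESeq2 called 21 of the 54 for ATP in WT, 6 of the 54 and 586 of all genes for ATP in NTT1, 41 and 12 of all genes for NTT1 against WT without and with ATP (3 and 4 by edgeR), and 6 for the interaction (0 by edgeR). The causes were not tested.

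When each library was left out in turn, calls among the 54 ranged from 0 to 52 for ATP in WT, 0 to 40 for ATP in NTT1, 0 to 40 for NTT1 against WT without ATP and 0 to 18 for the interaction. Calls over all genes ranged from 89 to 2086, 69 to 1030, 2 to 602 and 0 to 106 in the same order, and from 1 to 6 with ATP. The highest values for the 54 came without WT replicate 3 without ATP. Medians ranged from -0.048 to 0.44 for NTT1 against WT without ATP and from -0.43 to 0.031 for the interaction. The log2 fold change with ATP changed sign in KRR1 (WT, -0.11 to 0.30), and in NTT1 in KRR1 (-0.049 to 0.14), SNU13 (-0.071 to 0.14), SAS10 (-0.0086 to 0.16), ECM16 (-0.024 to 0.089) and BMS1 (-0.0049 to 0.099).

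With the replicate number as a block, 15 of the 54 were called for ATP in WT (4.65% of all genes were called higher), 1 in NTT1 (2.52%) and 0 in the other comparisons. Deviations of libraries with the same number correlated from -0.44 to 0.311 across all genes and from -0.505 to 0.475 across the 54. Across the 54, all 3 pairs of NTT1 with ATP and WT with ATP were over 0.1 (0.105, 0.475 and 0.47), and across all genes none of these was. The numbers were not taken as a pairing. The comparison of protein sequences was not run.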

Other observations

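The table also holds U3 RNA, a component of the processome. Its genes snR17a and snR17b had 10 to 24 and 11 to 14 counts per library in NTT1 with ATP, 17 to 26 and 15 to 20 in NTT1 without ATP, 7 to 26 and 16 to 27 in WT with ATP, and 11 to 21 and 11 to 16 in WT without ATP. These are raw counts, the genes are near-identical copies, and no level of U3 RNA is drawn from them.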
